A study of Mus musculus with 96 samples.

Results

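The globin genes described here are 9 symbols of the mouse alpha and beta globin clusters: the adult alpha genes Hba-a1 and Hba-a2, the adult beta genes Hbb-b1 and Hbb-b2, the embryonic genes Hba-x, Hbb-y and Hbb-bh1, and the theta genes Hbq1a and Hbq1b. They were chosen by name and not by their values, and all 9 were present among the 24321 gene symbols of the expression table, as 11 of its 34899 transcript entries. The table holds 96 single cells of mouse marrow labelled as erythroid precursors, all of strain C57BL/6 and genotype Rpl11 +/lox, so that every cell shares the heterozygous state of Rpl11, a gene for a protein of the large ribosomal subunit. There were no wild-type cells and no animal is named, and the cells therefore count as 1 sample in which groups of cells were described without a p-value. The labels name no driver of recombination at the lox allele and no number of mice. Per their protocols, the Fluidigm C1 system was used for capture and SMART-Seq for cDNA.

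Haemoglobin is assembled from alpha-type and beta-type chains around heme. In the mouse, Hba-x codes for the zeta chain and Hbb-y and Hbb-bh1 for the epsilon-y and beta-h1 chains, which are used mainly by the primitive red cells of the embryo, whereas definitive red cells of the adult marrow use the adult alpha and beta genes. The theta genes lie beside the adult alpha genes, and the part of their products in haemoglobin is not well established. Imbalance of alpha and beta chains is the basis of the thalassaemias.

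The promoters of the adult genes, of the embryonic genes Hba-x and Hbb-y and of Hbq1b are printed because these genes differ so widely in level within a cell. RefSeq sequences on the GRCm38.p6 build were matched for 6 of the 9 symbols, namely Hba-a1, Hba-a2, Hba-x, Hbq1a and Hbq1b on chromosome 11, and Hbb-y on chromosome 7. For Hbb-b1 and Hbb-b2 the promoters of Hbb-bs and Hbb-bt are shown, symbols of the adult beta genes whose values in the table were almost the same as theirs. Each runs 5′ to 3′ from 250 bases before to 50 bases after the start of the gene. Capitals mark short motifs searched on both strands, given with the share of all 32841 promoters of this length that hold each. The core of the GATA1 motif was sought as AGATAA, present in 11.2% of promoters, and with another first base as TGATAA, present in 9.05%. The CACCC box, bound by KLF1, was present in 57.5% and the CCAAT box in 37.4%. The TATA box was sought as TATAAA, held by 13.6% of promoters, then as the variant CATAAA, held by 11.9%, and with a changed last base as TATAAG, held by 7.44%.
Hba-a1 (chr11:32283422-32283721, plus strand): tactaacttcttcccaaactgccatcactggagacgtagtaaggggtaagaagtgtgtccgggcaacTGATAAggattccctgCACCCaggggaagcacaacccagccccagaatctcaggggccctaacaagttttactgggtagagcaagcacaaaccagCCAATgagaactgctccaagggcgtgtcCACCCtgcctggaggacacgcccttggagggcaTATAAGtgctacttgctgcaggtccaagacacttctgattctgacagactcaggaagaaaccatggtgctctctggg
Hba-x (chr11:32276350-32276649, plus strand): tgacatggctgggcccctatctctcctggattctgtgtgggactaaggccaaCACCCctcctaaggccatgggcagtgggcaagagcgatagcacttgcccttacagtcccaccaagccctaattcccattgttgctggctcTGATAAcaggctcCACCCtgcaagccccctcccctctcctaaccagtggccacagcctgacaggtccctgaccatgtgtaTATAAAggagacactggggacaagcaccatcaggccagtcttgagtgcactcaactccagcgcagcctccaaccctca
Hbq1b (chr11:32286714-32287013, plus strand): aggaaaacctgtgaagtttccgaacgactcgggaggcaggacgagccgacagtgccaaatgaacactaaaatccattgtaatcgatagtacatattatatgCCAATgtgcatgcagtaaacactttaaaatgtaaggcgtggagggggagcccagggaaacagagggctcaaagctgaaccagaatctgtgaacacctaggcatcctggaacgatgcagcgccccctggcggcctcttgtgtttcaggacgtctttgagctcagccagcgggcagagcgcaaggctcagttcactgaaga
Hbb-bs (chr7:103827879-103828178, minus strand): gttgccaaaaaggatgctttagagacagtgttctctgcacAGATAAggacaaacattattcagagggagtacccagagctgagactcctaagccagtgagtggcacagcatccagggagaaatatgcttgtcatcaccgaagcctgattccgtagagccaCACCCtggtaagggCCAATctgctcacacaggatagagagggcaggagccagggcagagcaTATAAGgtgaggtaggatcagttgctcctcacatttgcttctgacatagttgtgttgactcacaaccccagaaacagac
Hbb-bt (chr7:103813874-103814173, minus strand): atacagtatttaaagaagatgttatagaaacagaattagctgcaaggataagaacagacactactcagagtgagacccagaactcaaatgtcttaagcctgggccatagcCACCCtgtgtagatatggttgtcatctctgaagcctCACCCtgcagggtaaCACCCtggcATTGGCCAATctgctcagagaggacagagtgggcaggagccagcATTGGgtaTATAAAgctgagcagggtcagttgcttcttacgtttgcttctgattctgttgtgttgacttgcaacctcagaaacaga
Hbb-y (chr7:103853158-103853457, minus strand): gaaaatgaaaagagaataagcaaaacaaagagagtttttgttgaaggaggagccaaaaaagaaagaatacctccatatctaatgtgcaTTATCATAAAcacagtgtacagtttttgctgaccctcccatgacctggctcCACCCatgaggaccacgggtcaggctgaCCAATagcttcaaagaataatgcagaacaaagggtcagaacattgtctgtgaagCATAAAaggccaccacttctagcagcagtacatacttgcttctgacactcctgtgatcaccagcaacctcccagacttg
A GATA form began 183 bases before the start in Hba-a1, 108 in Hba-x, 210 in Hbb-bs and 162 in Hbb-y, where it lay on the other strand and overlapped a TATA box form. A TATA box form also began 27 to 29 bases before the start in all of these except Hbq1b. The Hbq1a and Hbq1b promoters were 95.3% identical, and each held only the CCAAT box, 149 bases before the start. Hbb-bt held neither GATA form and had 3 matches each to the CACCC and CCAAT boxes, with no overlap. The Hba-a1 and Hba-a2 promoters were identical over 297 aligned bases.

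Values were in RPKM, mapped reads scaled to transcript length and to the total of the cell, so that levels of different globin genes are compared per length. Depth, estimated from the steps between low values, was, in units of 1000 reads, 5864 at the median cell, with a range of 0.144 to 11657. At least 1000 genes were listed at 1 RPKM or more in 69 cells, with a median depth of 6543 in these units, and in the 27 cells below that number the median was 156. Transcripts of another blood lineage, meaning at least 3 markers of a non-erythroid list at 10 RPKM or more, were carried by 14 of the 69 cells, of which 10 met the neutrophil list and 10 the monocyte or macrophage list. All 14 had Hba-a1 under 100000 RPKM, so the label of erythroid precursor did not hold for every cell by its markers. Over all 96 cells the number was 15. The additional cell, cell 23 with 877 genes, had 5 neutrophil markers and 285710 RPKM of Hba-a1. At least 3 of 19 erythroblast markers were at 10 RPKM or more in all 48 cells at 100000 RPKM or more of Hba-a1 and in 11 of the 21 other cells. Some of the 14 cells of another lineage met this list as well, such as cell 57 with 5 erythroblast markers and cell 50 with 4. Cell 68, which carried no other lineage, had 1 and did not meet it. The sample descriptions give 3 run codes, SCP-1706080 with 52 cells, SCP-170608 with 25 and SCP-1706013 with 19; titles carry a single code throughout.

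Adult alpha globin spanned several orders of magnitude. Hba-a1 was detected in all 96 cells and ran from 49.6 RPKM through a median of 264027 to 594269 RPKM. Hba-a2 was within 0.011 of Hba-a1 on the log2 scale in every cell with 100 RPKM or more of both, and the reference transcripts of these genes share an exact run of 415 bases. The sources used here do not say how reads matching several copies were counted, so Hba-a1 and Hba-a2 cannot be told apart and are treated as 1 level. Along Hba-a1, 13 cells lay under 1000 RPKM, 5 from 1000 to under 10000, 12 from 10000 to under 100000, 20 from 100000 to under 300000, and 46 at 300000 or more.

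Adult beta globin was likewise detected in all 96 cells. Hbb-b1 ran from 21.4 RPKM through a median of 137470 to 434562 RPKM, and Hbb-b2 from 18.0 through 129048 to 394377 RPKM. Hbb-b1 exceeded Hbb-b2 slightly in most cells, with a median log2 difference of 0.13 over the 89 cells with 100 RPKM or more of both and a range of -0.36 to 3.42. Hbb-b1 was within 0.039 of Hbb-bs on the log2 scale, and Hbb-b2 and Hbb-bt had equal values in 96 cells, so these pairs are also taken as 1 level each. Transcripts of Hbb-bs and Hbb-bt share an exact run of 430 bases.

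**Figure D1:**
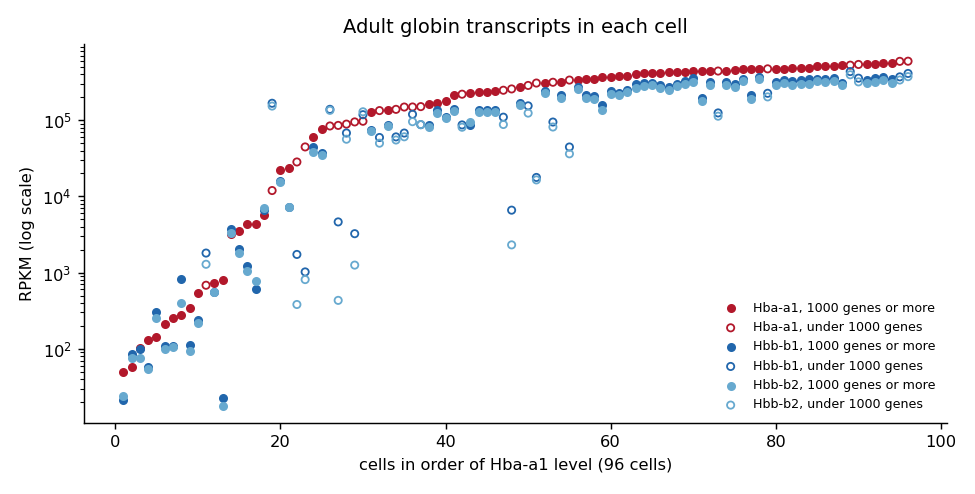
RPKM (log scale) of Hba-a1, Hbb-b1 and Hbb-b2 in each of the 96 cells, placed in order of Hba-a1 level. Filled points are cells with 1000 genes or more and open points cells with under 1000 genes. The beta genes follow Hba-a1 over its whole range, and the cells in which they drop far below it are mostly open points.

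Alpha and beta transcripts stayed close to each other while both changed by orders of magnitude. In the 94 cells with Hba-a1 at 100 RPKM or more, the highest adult alpha value over the highest adult beta value had a median log2 ratio of 0.65 with an SD of 1.35 over cells, a median ratio of 1.57. Hba-a1 has 2 transcript entries with nearly equal values, and adding these up in place of the highest gave a median log2 ratio of 1.62. The ratio was below 1 in 8 cells, and in 9 cells alpha was at least 4-fold above beta. By band and with no minimum of Hba-a1, cells with 1000 genes or more had a median log2 ratio of 0.98 (12 cells) under 1000 RPKM of Hba-a1, 0.76 (5 cells) from 1000, 0.77 (4 cells) from 10000, 0.77 (11 cells) from 100000 and 0.55 (37 cells) at 300000 RPKM or more. The SD over cells was 1.69 in the lowest band and 0.21 in the highest. It was 0.22 in the 11 cells from 100000 RPKM. Only 1 of the 12 cells in the lowest band carried no other lineage, cell 68 with a log2 ratio of 0.38. In the next band only 2 of the 5 carried none, cell 31 at -0.30 and cell 64 at -0.26.

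The spread of the ratio went with few genes, low depth and other lineages. Its SD was 0.78 over the 67 cells with 1000 genes or more, 0.32 over the 55 of these without another lineage, and 2.12 over the 27 cells with under 1000 genes. By depth, the SD was 0.75 in the 73 cells at 1000000 reads or more and 2.26 in the 23 below, over all 96 cells. The part of depth in the ratio was not tested. Within run codes the median was 0.67 in SCP-1706080, 0.76 in SCP-170608 and 0.58 in SCP-1706013, but 8 of the 9 cells with a 4-fold alpha excess were of SCP-1706080. Of the 52 cells of that code, only 24 at 100000 RPKM or more of Hba-a1 and 8 below it had 1000 genes or more. These numbers were 13 and 9 of 25 cells in SCP-170608 and 11 and 4 of 19 in SCP-1706013. Whether the excess went with the run code or with few genes was not tested.

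Of the 9 cells with alpha at least 4-fold above beta, 7 had under 1000 genes. Cell 5 was the farthest, with 44560 RPKM of Hba-a1, 1021 RPKM of Hbb-b1 and 809 RPKM of Hbb-b2, a log2 ratio of 5.45. Cell 43 had 257107 RPKM of Hba-a1, 6596 RPKM of Hbb-b1 and 2310 RPKM of Hbb-b2. In 4 of these cells the beta genes also disagreed with each other, with a log2 difference of Hbb-b1 over Hbb-b2 of 2.18 in cell 46, 3.42 in cell 4, 1.37 in cell 40 and 1.51 in cell 43. The 2 cells with 1000 genes or more were cells 33 and 60, at 798 and 4332 RPKM of Hba-a1, and both carried markers of another lineage. Among the 55 cells with 1000 genes or more and no other lineage, 0 had such an excess of alpha. The opposite case was cell 34, with 195 genes, in which Hba-a1 stood at 11932 RPKM and Hbb-b1 at 166742 RPKM, a log2 ratio of -3.80.

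**Figure D2:**
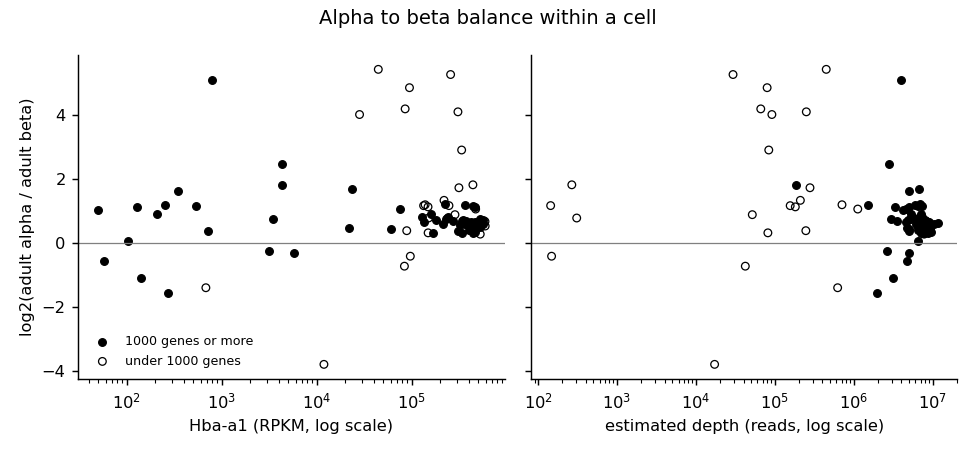
Log2 ratio of adult alpha to adult beta RPKM in each of 96 cells against Hba-a1 RPKM (left, log scale) and against estimated depth in reads (right, log scale). Filled points are cells with 1000 genes or more, open points cells with under 1000 genes, and the grey line marks equal levels. Filled points at high Hba-a1 lie in a narrow range above the line, and most points beyond 4 or below -2 are open.

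Embryonic and theta transcripts were detected in most cells with much adult globin and in none of those with the least. At 1 RPKM or more, Hbb-bh1 was detected in 57 of 96 cells (59.4%, exact 95% interval 48.9% to 69.3%), Hba-x in 54 (56.2%), Hbq1b in 52 (54.2%), Hbb-y in 50 (52.1%) and Hbq1a in 45 (46.9%). All intervals are Clopper-Pearson intervals and, like the floors of 3 reads below, cover counting error only. In the 13 cells under 1000 RPKM of Hba-a1 and the 5 cells from 1000 to under 10000, none of these 5 genes was detected, for which the exact interval reaches up to 24.7% and 52.2% of such cells. All of these cells carried transcripts of another lineage except cells 45 and 68 in the lowest band and cells 31 and 64 in the next. From 10000 to under 100000 RPKM, Hbb-bh1 and Hba-x were each detected in 3 of 12 cells, Hbq1b in 2, Hbq1a in 1 and Hbb-y in 0. Low adult globin limits what can be seen: at 0.299% of adult beta, the median share of Hbb-bh1 in the globin-rich cells described below, this gene would lie under 1 RPKM or under 3 reads in 12 of the 13 cells of the lowest band, 1 of the 5 cells of the next and 5 of the 12 cells after that.

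Detection was near complete at the top. From 100000 to under 300000 RPKM, Hbb-bh1 was detected in 12 of 20 cells, Hba-x in 11, Hbb-y and Hbq1b in 8 each and Hbq1a in 6. At 300000 RPKM or more, the numbers of 46 cells were 42 for each of Hbb-bh1, Hbb-y and Hbq1b, 40 for Hba-x and 38 for Hbq1a. A share of adult beta can be read in such cells only down to a floor of 3 reads. In the 5 cells from 1000 to under 10000 RPKM of Hba-a1, Hbb-bh1 was listed at 0, and its floor as a percent of adult beta was 0.0491% in cell 64, 0.0813% in cell 54, 0.0137% in cell 31, 0.229% in cell 60 and 2.18% in cell 56. Of the 26 cells under 100000 RPKM that listed Hbb-bh1 at 0, 5 had a floor under 0.1%.

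The embryonic beta gene Hbb-bh1 kept an almost fixed share of adult beta globin. Cells with 1000 genes or more and Hba-a1 at 100000 RPKM or more, 48 in number, are called globin-rich below, and the 21 other cells with 1000 genes or more are the cells they are set against. In all 48 globin-rich cells Hbb-bh1 was detected, at 240.4 to 6241 RPKM with a median of 831 RPKM. As a percent of the higher adult beta value, it had a median of 0.299% with quartiles of 0.274% and 0.326%. The median share was 0.314% in the 11 cells from 100000 RPKM of Hba-a1 and 0.298% in the 37 cells at 300000 RPKM or more, a difference smaller than the interquartile range. The share depends on how the adult level is taken: against the sum of both adult beta genes the median was 0.156%.

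A few cells left that line. Cell 85 stood at 1.80% and cell 38 at 1.39%, and the lowest globin-rich cell, cell 27, at 0.239%. Among cells with 1000 genes or more below 100000 RPKM, Hbb-bh1 was at 0.214% in cell 79, 0.257% in cell 66 and 0.221% in cell 80, close to the globin-rich cells, but at 0.00197% in cell 86, where adult beta was 36716 RPKM. Within run codes the globin-rich median was 0.300% in SCP-1706080, 0.297% in SCP-170608 and 0.298% in SCP-1706013. Among all 66 cells at 100000 RPKM or more of Hba-a1, 12 listed Hbb-bh1 at 0, all with under 1000 genes. The floor of 3 reads lay under 0.1% of adult beta in 6 of those 12 and above it in the other 6.

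Hbb-y, the other embryonic beta gene measured, was split between levels far apart. In 34 of the 48 globin-rich cells (70.8%, 55.9% to 83.0%) it was at 0.1% or more of adult beta, with a median of 0.213% and quartiles of 0.190% and 0.224%. In the other 14 cells the median was 0.00161% and the highest value 0.00317%. The boundary of 0.1% was set after the values were seen, and no cell lay between 0.00317% in cell 30 and 0.132% in cell 19. In RPKM, the upper cells ran from 177 through a median of 583 to 4987, and the lower cells from 0.472 through 3.05 to 11.7. Cell 85, the highest for Hbb-bh1, was also the highest for Hbb-y at 1.44% of adult beta.

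Upper cells of Hbb-y numbered 6 of 11 from 100000 to under 300000 RPKM of Hba-a1 and 28 of 37 at 300000 RPKM or more. The median Hba-a1 was 423183 RPKM in the upper cells and 432459 RPKM in the lower cells, and the median depth, in units of 1000 reads, was 7105 in the upper cells and 7036 in the lower cells. Hbb-y corresponded to a median of 2740 estimated reads in the upper cells and 13 in the lower cells, where 11 of 14 cells reached the floor of 3 reads. The upper level was reached by 16 of 24 globin-rich cells in SCP-1706080, 9 of 13 in SCP-170608 and 9 of 11 in SCP-1706013.

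Hba-x, the embryonic alpha-type gene, was also split at 0.1%, but with fewer cells at the upper level and a narrower gap. The widest empty stretch was 5.39-fold for Hba-x and 41.8-fold for Hbb-y. Hba-x was at 0.1% or more of adult alpha in 14 of 48 globin-rich cells (29.2%, 17.0% to 44.1%), with a median of 0.334% and quartiles of 0.327% and 0.351%. The other 34 cells had a median of 0.00241%, and their highest value was 0.0314% in cell 93, against 0.170% in cell 32, the lowest of the upper cells. Cell 38 was at 0.173%, and the next upper cell at 0.321%. In RPKM the upper cells ran from 682 through 1478 to 1959, and the lower cells from 0 through 8.02 to 147.5. The median number of estimated reads was 8839 in the upper cells and 48 in the lower cells. By band the upper level held 1 of 11 cells from 100000 to under 300000 RPKM of Hba-a1 and 13 of 37 at 300000 RPKM or more. By run code it held 9 of 24 globin-rich cells in SCP-1706080, 3 of 13 in SCP-170608 and 2 of 11 in SCP-1706013.

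The upper levels of the embryonic genes overlapped without coinciding. Of the 14 cells at the upper level of Hba-x, 12 (85.7%) were also at the upper level of Hbb-y, beside 70.8% of all 48 globin-rich cells. These were 12 of the 34 (35.3%) Hbb-y cells, beside 29.2% of all 48 at the upper level of Hba-x. Of the 48, 22 cells were at the upper level of Hbb-y alone and 12 of neither. All of them carried Hbb-bh1. At their upper levels the medians were 0.334% of adult alpha for Hba-x and 0.213% and 0.299% of adult beta for Hbb-y and Hbb-bh1. Against the sum of both adult genes they were 0.168%, 0.111% and 0.156%. With all transcript entries added up, Hba-x was at 0.171% of adult alpha, while Hbb-y and Hbb-bh1 stayed at 0.213% and 0.299% of adult beta. The reference transcripts share short exact runs with the adult genes, of 18 bases between Hba-x and Hba-a1 and 22 bases between each of Hbb-y and Hbb-bh1 and Hbb-bs. Whether reads of the adult genes reached the embryonic ones was not tested.

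**Figure D3:**
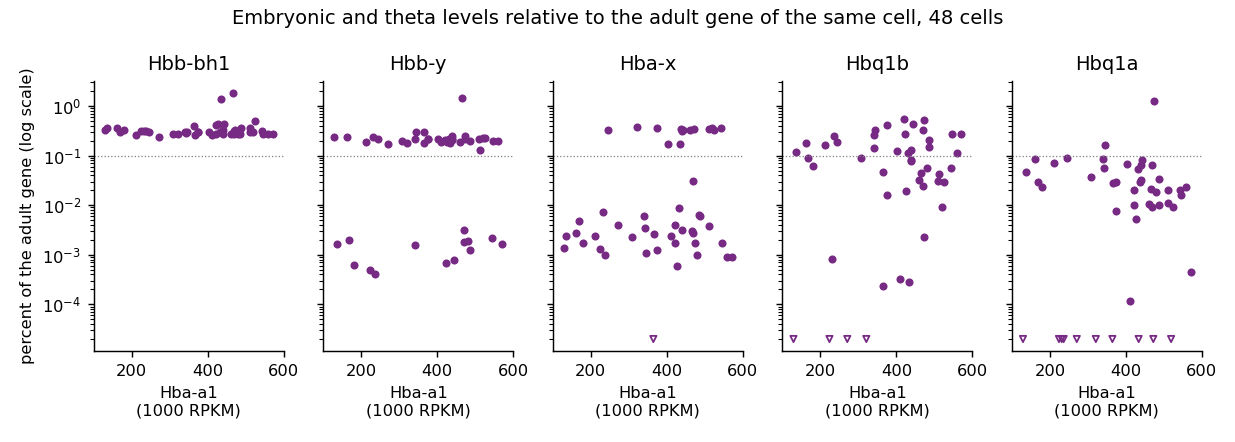
Percent (log scale) of each embryonic or theta gene relative to the adult gene of its own cluster, against Hba-a1 in units of 1000 RPKM, in the 48 globin-rich cells. Each point is a cell, triangles at the bottom are cells listed at 0, and the dotted line marks 0.1%. Hbb-bh1 forms a single line near 0.3%, and Hbq1b has cells on both sides close to 0.1%. Hbb-y and Hba-x form upper and lower levels, with a narrower gap for Hba-x.

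Theta genes did not fall into a lower and an upper level at 0.1%. Among globin-rich cells Hbq1b had a median of 283 RPKM and ran up to 2531 RPKM, and Hbq1a had a median of 86.3 RPKM and ran up to 5965 RPKM. Hbq1b reached 0.1% of adult alpha in 22 of 48 cells (45.8%, 31.4% to 60.8%) and Hbq1a in 2, but the neighbours on either side of that value were 0.0897% and 0.111% for Hbq1b and 0.0882% and 0.163% for Hbq1a. Hbq1a was listed at 0 in 10 cells, and its widest empty stretches lay elsewhere, from 0.000441% to 0.00517% and from 0.163% to 1.26%. At 11.7-fold and 7.74-fold, these were wider than the 5.39-fold stretch of Hba-x. For Hbq1b the widest lay from 0.00227% to 0.00919%. Cells with Hbq1b at 0.1% or more and Hba-x at its upper level numbered 4. These were 28.6% of the Hba-x cells, where Hbq1b reached 0.1% in 45.8% of all 48. They were 18.2% of the Hbq1b cells, where Hba-x was at its upper level in 29.2% of all 48.

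Hbq1b was the higher of the theta pair nearly everywhere. Both were at 1 RPKM or more in 37 globin-rich cells, and Hbq1b was the higher in 36 of these, with a median log2 ratio of 1.43 and a range of -1.24 to 8.82. It was at least 4-fold higher in 11 cells. In a further 6 cells Hbq1b was detected without Hbq1a, in 0 cells Hbq1a without Hbq1b, and in 5 cells neither. The exception was cell 8, with 5965 RPKM of Hbq1a and 2531 RPKM of Hbq1b, the highest globin-rich value of each. Their reference transcripts share an exact run of 222 bases and are 94.8% identical, so the split between them is uncertain.

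As a description over cells that share library chemistry and differ in depth, the Spearman correlation with the adult alpha level over 69 cells was 0.96 for Hbb-b1, 0.93 for Hbb-bh1, 0.81 for Hba-x, 0.80 for Hbb-y, 0.72 for Hbq1b and 0.60 for Hbq1a. The number of genes per cell had -0.91 and depth 0.57 with the same level. Over the 55 cells without another lineage the correlation was 0.93 for Hbb-b1, 0.88 for Hbb-bh1, 0.65 for Hba-x and 0.64 for Hbb-y. It was 0.52 for Hbq1b and 0.36 for Hbq1a there. Over the 48 globin-rich cells alone the order was Hbb-bh1 at 0.83, Hba-x at 0.48, Hbb-y at 0.46, Hbq1b at 0.32 and Hbq1a at 0.13. Likeness to other genes was ranked over all 69 cells, including the 14 of another lineage, and so partly follows lineage. Of 5843 other genes, those near to adult alpha included Gch1 (0.69), Ube2c (0.67), Alas2 (0.64) and Slc25a37 (0.63). Gch1 codes for GTP cyclohydrolase, Ube2c for a ubiquitin-conjugating enzyme of mitosis, Alas2 for the erythroid enzyme that starts heme synthesis, and Slc25a37 for mitoferrin. Genes near to Hbb-y included Alas2 (0.69), Gm867 (0.63), Ube2l6 (0.62) and Dmtn (0.60), and those near to Hbq1b included Gpx1 (0.61), Ube2c (0.61), Gypc (0.59) and Dmtn (0.58). Ube2l6 codes for a conjugating enzyme of ISG15, Dmtn for the membrane skeleton protein dematin, Gpx1 for a glutathione peroxidase and Gypc for glycophorin C.

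Globin-rich cells were then set against the other cells over 13018 genes, as the difference of mean log2(RPKM + 1). A gene was counted as higher or lower when this was at least 1 in size and had the same direction in every run code with at least 3 cells on both sides. Hba-a1 defined the groups, so Hba-a1 and Hba-a2 are no result here. The summed level of 10 neutrophil markers was 0 to 132 RPKM in globin-rich cells and 0 to 75525 RPKM in other cells, and that of 9 monocyte or macrophage markers 0 to 128 RPKM and 0 to 13894 RPKM in the same groups; Ltf, Cd74 and C1qa were at 0 in all of these cells. The remaining 7 globin genes were all higher, where 1.97% of all genes were higher and 31.2% lower. Without the cells of another lineage, 48 globin-rich and 7 other cells remained, the same 7 globin genes were higher, and 1.27% of all genes were higher and 30% lower.

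The adult beta genes were far higher in globin-rich cells. Hbb-b1 ran from 73912 through a median of 293230 to 372495 RPKM in globin-rich cells, and from 21.4 through 556 to 44051 RPKM in other cells. The groups were cut on Hba-a1, and Hbb-b1 had a Spearman correlation of 0.96 with the adult alpha level. The difference was 8.51, or 4.83 without cells of another lineage. Within run codes it was 10.75 in SCP-1706080, 8.12 in SCP-170608 and 4.59 in SCP-1706013. For Hbb-b2 the difference was 8.55, or 4.78 without cells of another lineage.

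Among embryonic genes the difference was 8.80 for Hbb-bh1 (7.20 without cells of another lineage), 6.99 for Hbb-y (6.93) and 5.16 for Hba-x (4.85). Hbb-bh1 ran from 240.4 to 6241 RPKM in globin-rich cells and from 0 to 97.4 RPKM in other cells, where it was detected in 3 of 21. Hbb-y ran from 0.472 through 468 to 4987 RPKM in globin-rich cells and from 0 to 0.468 RPKM in other cells. The values nearest to each other, in cells 89 and 80, each came to an estimated 2 reads, under the floor of 3 reads. Hba-x ran from 0 through 13.2 to 1959 RPKM in globin-rich cells and from 0 to 1.47 RPKM in other cells, and these groups overlapped.

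The theta genes Hbq1b and Hbq1a differed by 6.88 (6.30 without cells of another lineage) and 5.02 (4.59). Hbq1b was detected in 43 of 48 globin-rich cells and 1 of 21 other cells, cell 86 at 78.7 RPKM, and Hbq1a in 37 of 48 and 1 of 21. The beta-cluster gene Hbb-bh2, not among the 9, was higher by 2.53, with a median of 2.89 RPKM in globin-rich cells and 0 in other cells. RPKM is relative within a cell, and adult globin takes a large part of the listed total of globin-rich cells. With globin removed from the total and each cell rescaled, 410 genes were higher and 3746 lower, against 256 and 4056, and the median of all genes was -0.49, against -0.53.

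Known activators of globin genes did not move together. Of 10 factors, 3 were higher and 1 lower. Of all genes 1.97% were higher and 31.2% lower, and of genes in at least 10 cells 58.5% were lower. The median difference of the 10 was 0.34, beside -0.53 over all genes and -1.47 over genes in at least 10 cells. It turned to -0.34 when each cell was rescaled to a total of 1000000. Klf1, which binds CACCC in the adult beta promoter, had 140 through 518 to 1205 RPKM in globin-rich cells, and 0 to 883 RPKM with a median of 0 in other cells, a difference of 5.89. Tal1, an erythroid factor that acts with GATA1, was higher by 1.97 and Zfpm1, the GATA1 partner FOG1, by 1.73. Ldb1, the looping factor that joins the beta globin enhancer to its promoter, had a difference of -1.54. Gata1 had a difference of 2.79 without the same direction in every run code, and was not counted.

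These higher values rested on the cells of another lineage. Without them 0 of the 10 activators were higher, against 1.27% of all genes. Of the 10, 3 were lower, against 30% of all genes and 59.6% of those in at least 10 cells. The median was -0.37, against -0.50 over all genes and -1.76 over those in at least 10 cells. In that comparison the difference was 0.83 for Klf1, 0.44 for Tal1, -0.052 for Zfpm1 and -1.49 for Gata1. Klf1 and Tal1 were each detected in 6 of the 7 other cells and had a lowest value of 0, which weighs on a mean of 7. The Klf1 median was 706 RPKM in these 7 cells, above 518 RPKM in globin-rich cells, and that of Tal1 was 8.96 against 11.6 RPKM. Cell 68, among the 7, had only 1 erythroblast marker at 10 RPKM or more. Ldb1 was lower in both comparisons, at -2.69 without cells of another lineage. The factors Lmo2 at -1.61 and Tcf3 at -1.09 were counted as lower only after those cells were left out.

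Of 15 genes for factors that silence embryonic globin genes in adult cells, 8 (53.3%) were lower and 1 was higher, with a median difference of -1.30. Of all genes 1.97% were higher, and of genes that at least 10 cells listed 58.5% were lower. Without cells of another lineage 9 (60.0%) were lower, against 59.6%, and 1 was higher, and the median difference was -1.61. The list's median was -0.43 with a pseudocount of 10 and -0.50 with a minimum of 2000 genes. Over the genes that at least 10 cells listed at 1 RPKM or more, the median difference was -1.47, or -1.76 without those cells, close to that of the list. Bcl11a, a repressor of embryonic and fetal globin genes, was detected in 7 of 48 globin-rich cells and 12 of 21 other cells, a difference of -2.56. Sox6, its partner in silencing Hbb-y, was the only higher member, detected in 34 of 48 globin-rich cells and 4 of 21 other cells, by 2.15, and was counted as higher without cells of another lineage as well.

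The other lower members were Myb (-3.62), Mbd3 (-3.40), Hdac2 (-3.28), Hdac1 (-3.28), Chd4 (-2.01), Mta2 (-1.87) and Dnmt1 (-1.30). Myb is a factor of early progenitors, Mbd3, Chd4, Mta2, Hdac1 and Hdac2 are subunits of the NuRD complex, and Dnmt1 maintains DNA methylation. Myb and Mta2 were not counted as lower without cells of another lineage, at -2.22 and -1.59.

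**Figure D4:**
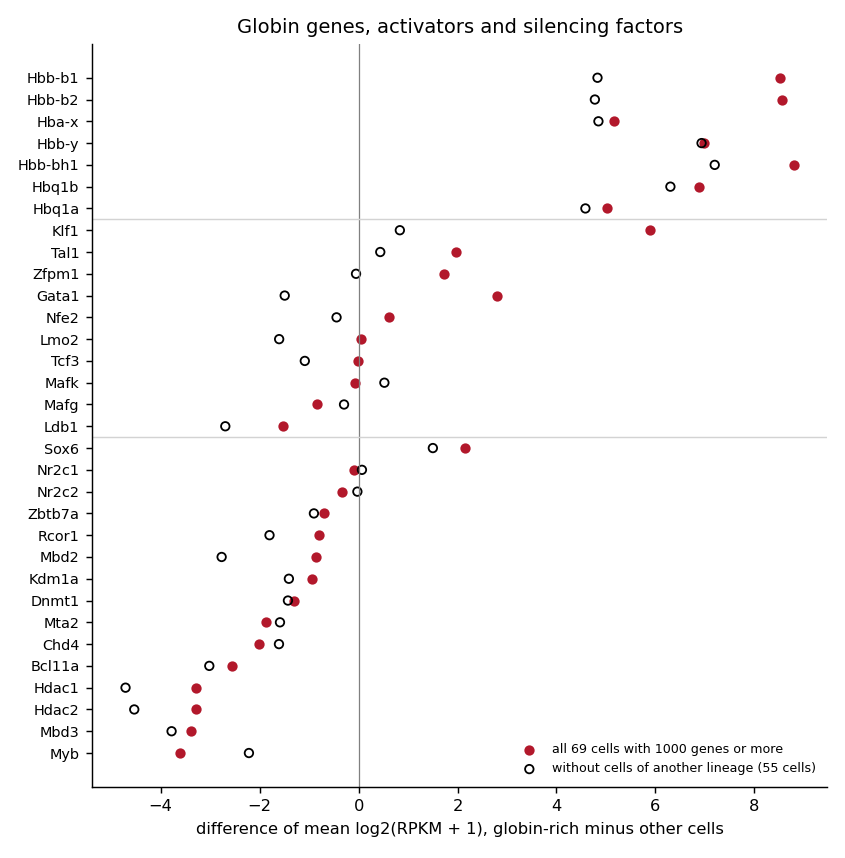
Difference of mean log2(RPKM + 1), globin-rich minus other cells, for 7 globin genes (top), 10 activators (middle) and 15 silencing factors (bottom). Filled points use all 69 cells with 1000 genes or more and open points the 55 cells without another lineage. Globin genes lie far to the right in both, whereas Klf1 and Gata1 move by more than 4 between the filled and open points.

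Of 6 genes for heme and globin quality, 2 were higher and 1 lower, with or without cells of another lineage. Of all genes 1.97% were higher and 31.2% lower, or 1.27% and 30% without those cells. Among genes in at least 10 cells, 58.5% were lower, or 59.6% without those cells. Alas2 was higher by 7.80 (5.90 without those cells), at a median of 599 RPKM in globin-rich cells and 0 in other cells. Eif2ak1, the heme-regulated kinase that restrains globin translation, was higher by 1.97 (1.17), and Hspa8, a constitutive chaperone, was lower, with a difference of -5.57 (-5.90). Usp7 had a difference of 0.80. Of 5 tested genes beside the alpha globin cluster, 0 were higher and 2 were lower, against 58.5% lower among genes in at least 10 cells. The lower genes were Luc7l (-2.61) and Snrnp25 (-1.86), while Mpg had -0.95 and Nprl3, whose introns hold alpha globin enhancers, -0.64. Without cells of another lineage 4 of these 5 were lower, against 59.6% of genes in at least 10 cells, among them Mpg at -2.80 and Nprl3 at -2.44.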

How the data were processed

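RNA of 96 single cells was measured. Capture on the Fluidigm C1, SMART-Seq amplification and Nextera XT preparation are given per the labels' protocols. The submitters' processing notes name TopHat2 2.0.9 and the build mm9, and the sources used here give no further step. The authors deposited RPKM values, used as deposited. From these, a gene was given its highest transcript entry in a cell, and means were taken of log2(RPKM + 1), a scale that understates differences of low genes. Depth was estimated from the RPKM of 1 read times transcript length (lengths for 97.6% of entries from GENCODE vM21, of another build). At the estimate, a median of 59.8% of low values were within 0.06 of whole reads. Reads or pairs were not told apart, so absolute depths are known only within a factor of 2, and the 185226 reads estimated for cell 56, which listed 2295 genes, may be too low.

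The ratio of alpha to beta used the highest adult value of each cluster, with a pseudocount of 1, in cells with Hba-a1 at 100 RPKM or more, and embryonic and theta values were divided by the adult gene of their own cluster. Cells carry 1 group label and no animal, so no test was run. SDs are over cells, and shares have exact 95% intervals. No doublet caller was run. The globin genes and gene lists were chosen with earlier results of these data known, and the bands of Hba-a1 and the level of 0.1% after values were seen. Named genes were the globins, the list members counted as higher or lower, the 4 of a list with the largest differences, and the 5 most alike genes, of which 1 is not reported here. Values named outside that rule (Lmo2, Tcf3 and Hbb-bh2) were chosen after they were seen. The list of genes beside the alpha cluster had 7 members, of which 5 were above 0 in at least 1 cell. Promoter windows are RefSeq sequences on GRCm38.p6. The depth estimate was tested on simulated counts, with lengths known exactly. The contrast was tried on the values of these cells, with known changes put into some well-detected genes. Those changes were larger than the size needed for a gene to be counted, and low genes were not covered. Python 3.11.15, pandas 2.3.3, numpy 2.4.6 and scipy 1.17.1 were used.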

Additional observations from a re-analysis of the deposited data

How the results depend on the processing

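No paired analysis was possible because all cells belong to 1 group and no test was made. The balance of alpha to beta (0.65) moved farthest when all entries of a symbol were added up, to 1.62. Median log2 shares over 94 cells, whose SD over cells is wide (3.19 to 3.78), moved with the way the adult level was taken. Against the sum of both copies they were -15.57 for Hba-x, -10.35 for Hbb-y, -9.44 for Hbb-bh1, -13.51 for Hbq1a and -12.09 for Hbq1b, against -14.58, -9.58, -8.51, -12.52 and -11.09 with the highest copy. With entries added up they were -15.51 for Hba-x, -13.44 for Hbq1a and -12.01 for Hbq1b. Under the other alternatives Hba-x ran from -14.94 to -13.23, Hbb-y from -10.76 to -9.01, Hbq1a from -13.41 to -11.99 and Hbq1b from -11.66 to -9.90. The 7 globin genes had a positive difference under every alternative, from 2.73 upward. Detection moved with the threshold and the cells: at 10 RPKM it was 34.4% for Hba-x and 40.6% for Hbb-y. In cells with 1000 genes or more it was 69.6% for Hba-x, 65.2% for Hbb-y and 73.9% for Hbb-bh1, and without cells of another lineage 66.7% for Hba-x and 70.4% for Hbb-bh1. At 1000000 reads or more it was 71.2% for Hba-x, 68.5% for Hbb-y, 76.7% for Hbb-bh1, 58.9% for Hbq1a and 67.1% for Hbq1b. Leaving out each run code gave 54.5% to 72.7% for Hbb-bh1, the highest without SCP-1706080. The 256 genes higher in globin-rich cells became 83 after rescaling each cell to 1000000, 410 after also removing globin from the total, 448 with a split at 10000 RPKM, 145 at 300000 RPKM, 387 with a minimum of 2000 genes, 150 with a pseudocount of 10 and 165 without cells of another lineage, and 257 to 407 as run codes were left out, the highest without SCP-1706013. The 4056 genes lower became 2016 with a pseudocount of 10. The median of all genes (-0.53, SD 0.14 over run codes) was -0.68 after rescaling, -0.36 with no gene minimum, -0.38 with a minimum of 2000 genes, -0.19 with a pseudocount of 10, -1.47 over genes in at least 10 cells and -0.73 without cells of another lineage over the genes listed in the cells kept. The activator median of 0.34 reversed to -0.34 after rescaling, -0.040 with a split at 300000 RPKM and -0.37 without cells of another lineage, and the cause was not tested. The silencing median of -1.30 ran from -1.87 with entries added up to -0.43 with a pseudocount of 10. Cells with Hbb-y or Hba-x at the upper level numbered 34 and 14 at bounds of 0.05% and 0.1%, 33 and 14 at 0.15%, and 38 and 16 with no gene minimum. The bounds of 0.05% and 0.15%, the alternative of 1000000 reads and the counts with no gene minimum were chosen after seeing the data. The comparison without cells of another lineage rests on 7 other cells, 1 of them in SCP-1706080. Depth limits shares in cells with little adult globin.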
